A study of Mus musculus with 14 samples.

Results

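DNA replication genes and regulators of the G1/S transition were followed as a module of 33 genes in green cells sorted from the mouse hippocampus after pilocarpine seizures. The members were taken by symbol from the 43346 genes of the count table, through the mouse Ensembl identifiers, and all 33 were found. They comprise origin recognition and licensing factors, the MCM helicase, helicase activators, primase and polymerases, the sliding clamp with its loader and Okazaki fragment enzymes, chromatin assembly and maintenance factors, and 4 regulators of S phase entry.

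Replication is licensed in G1, when the origin recognition complex, Cdc6 and Cdt1 load the MCM complex onto DNA, and begins in S phase, when Cdc45 and the GINS complex turn MCM into an active helicase. E2F transcription factors, released when cyclin kinases inactivate the retinoblastoma protein, switch on many of these genes at the G1/S border, so their transcripts mark dividing cells and are low in cells that have left the cycle. In the adult dentate gyrus the dividing cells include radial glia-like stem cells and intermediate progenitors, whereas granule cells have left the cycle. Microglia and oligodendrocyte precursors also divide in this tissue.

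All mice were C57BL/6 wild type, and CNO, the ligand of designer receptors (DREADDs), is part of the name of every group. The DREADD Pilo group (n = 3) is labelled as having seizures and silencing, and its library names carry hm4Di, an inhibitory designer receptor. The CAG-GFP Pilo group (n = 4) had seizures with the GFP construct, where CAG is a broadly active promoter. The DREADD Sham (n = 4) and CAG-GFP Sham (n = 3) groups had no seizures. Per the labels' protocol, seizure mice received scopolamine methyl nitrate and terbutaline at 2 mg/kg each, then pilocarpine at 300 mg/kg, and status epilepticus was stopped after 3 h with 10 mg/kg diazepam. Cells were taken at day 14. Each library came from 800 to 1000 live GFP-positive cells described as adult-born granule cells, amplified with SMART-Seq v4 from polyadenylated RNA. The labels do not say whether libraries of a group came from separate mice, so p-values measure the spread between these libraries, which may be technical. The sources used here do not give the age of the mice or the way the constructs were delivered.

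The libraries held between 10613291 and 38614639 counts in all, and levels are given as CPM, counts scaled to a common depth with TMM. The library names fall into 2 sets. In set 1 (CAG-GFP Sham 1 to 3, CAG-GFP Pilo 3 and 4, DREADD Sham 1 and 2) pseudogenes took 0.117% to 0.2% of counts, and in set 2 (the other 7 libraries, with all of DREADD Pilo) they took 4.33% to 8.12%. CAG-GFP Sham lies wholly in set 1 and DREADD Pilo wholly in set 2, so for that pair the set and the group cannot be told apart. CAG-GFP Pilo and DREADD Sham hold libraries of both sets, so their comparisons with these groups are partly mixed with the set. Single defining markers of the labelled cell type were absent from some libraries. Prox1, the granule cell identity factor, and Dcx, the marker of immature neurons, were both at 0 in DREADD Pilo 3 and CAG-GFP Pilo 4. The 10 mature granule cell markers, with Prox1, still summed to 132 CPM in DREADD Pilo 3 and 430 CPM in CAG-GFP Pilo 4. Their sums were 132 to 273 CPM in DREADD Pilo, 430 to 1197 in CAG-GFP Pilo and 196 to 836 in DREADD Sham, against 157 to 189 in CAG-GFP Sham. In DREADD Pilo 3 the choroid plexus transcript Ttr reached 149867 CPM. CAG-GFP Pilo 4 had 9372 genes with a count, the fewest of the 14 libraries. In bulk samples fewer cells of a type and less RNA per cell cannot be told apart.

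The sum of 10 astrocyte markers was 1175 to 2779 CPM in DREADD Pilo, 692 to 5384 in CAG-GFP Pilo and 1703 to 4574 in DREADD Sham, against 26733 to 27990 in CAG-GFP Sham. The sum of 10 oligodendrocyte markers was 402 to 43698 CPM in DREADD Pilo, 1349 to 37820 in CAG-GFP Pilo and 19003 to 40791 in DREADD Sham, against 595 to 703 in CAG-GFP Sham. Microglial markers (10 genes) summed to 177 to 24552 CPM in DREADD Pilo, 5334 to 9197 in CAG-GFP Pilo and 663 to 10103 in DREADD Sham, against 4249 to 4658 in CAG-GFP Sham. No gene of these 3 lists was at 0 counts in a whole group. Every comparison with CAG-GFP Sham therefore also sets libraries low in astrocyte markers against libraries high in them, and the part of this in the results on replication genes was not tested. The summed markers of neuroblasts and immature neurons (12 genes) were 15.6 to 369.7 CPM in DREADD Pilo, 189.9 to 546 in CAG-GFP Pilo and 338 to 1425 in DREADD Sham, against 103 to 134 in CAG-GFP Sham. Of these 12, Eomes and Igfbpl1 had no count in CAG-GFP Sham and Neurog2 had none in DREADD Sham. Markers of oligodendrocyte precursors, glial cells that can divide (8 genes), summed to 47.9 to 1712 CPM in DREADD Pilo, 139 to 1120.3 in CAG-GFP Pilo and 426 to 989 in DREADD Sham, against 25.2 to 45.5 in CAG-GFP Sham. These did not overlap, and edgeR called 3 of the 8 genes higher in each of the 3 groups against CAG-GFP Sham, where Cspg4 and Neu4 had no count. Markers of radial glia-like stem cells (10 genes) summed to 508 to 1290.3 CPM in DREADD Pilo, 291 to 1827 in CAG-GFP Pilo and 556 to 889 in DREADD Sham, against 4542 to 5101 in CAG-GFP Sham. These did not overlap either; 1 of the 10, Fabp7, was called lower in each of the 3 groups, and Vnn1 had no count in CAG-GFP Pilo and DREADD Sham. The part of both lists in the results on replication and mitotic genes was not tested.

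The upstream sequences of 3 MCM subunits are shown because Mcm2 and Mcm6 had no or few counts in CAG-GFP Sham and because Mcm5, a ring subunit with E2F-type letters, overlapped between all groups. Each is the 250 bases before the RefSeq start on GRCm38.p6, read on the gene's strand from 5′ to 3′, outside annotated exons. Capitals mark E2F-type letters, searched on both strands as TTTCCCGC, TTTGGCGC, TTTCGCGC and TTTGCCGC; matches may overlap.
Mcm6 (chr1:128359706-128359955, minus strand): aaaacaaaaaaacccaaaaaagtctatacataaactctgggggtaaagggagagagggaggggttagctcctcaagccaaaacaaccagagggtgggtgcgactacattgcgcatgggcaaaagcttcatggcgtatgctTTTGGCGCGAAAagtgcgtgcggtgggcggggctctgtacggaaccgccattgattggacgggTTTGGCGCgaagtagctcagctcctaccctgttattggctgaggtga
Mcm5 (chr8:75109259-75109508, plus strand): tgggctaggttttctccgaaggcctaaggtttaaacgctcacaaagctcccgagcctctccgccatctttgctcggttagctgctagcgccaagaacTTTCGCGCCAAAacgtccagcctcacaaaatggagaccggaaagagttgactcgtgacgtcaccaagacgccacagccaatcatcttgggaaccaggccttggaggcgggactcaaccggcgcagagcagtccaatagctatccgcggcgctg
Mcm2 (chr6:88898781-88899030, minus strand): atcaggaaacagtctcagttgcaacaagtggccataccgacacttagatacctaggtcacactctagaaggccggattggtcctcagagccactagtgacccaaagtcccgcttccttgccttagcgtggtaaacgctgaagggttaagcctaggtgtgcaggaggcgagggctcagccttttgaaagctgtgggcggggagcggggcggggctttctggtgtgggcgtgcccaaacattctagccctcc
Mcm6 held 3 matches, at 110, 106 and 47 bases before the start, and the first 2 of them overlap. Mcm5 held 2 overlapping matches, at 153 and 149 bases before the start. The Mcm2 window held none of these letters. RefSeq windows of 300 bases (250 before to 50 after the start) were given for 27 of the 33 members, and 12 of the 27 (44.4%) held a match, against 3.82% of the windows of all tested genes and 2.32% of all windows in the table. The 12 were Orc1, Cdc6, Cdt1, Mcm3, Mcm5, Mcm6, Mcm7, Gins3, Pola1, Rfc3, Hells and Dtl. The CCAAT box letters (CCAAT, either strand) were in 66.7% of member windows and in 38.2% of those of all tested genes. A match is a description of letters and not evidence of binding.

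A second pair of sequences is shown because it bears on how Pcna was counted. Pcna (ENSMUSG00000027342.10, chr2:132249162-132253314, minus strand, GRCm38) has a processed pseudogene, an intronless copy of its mRNA, named Pcna-ps2 (chr19:9283380-9284160, plus strand). The copy matched 781 bases of the Pcna coding sequence at 99.232% identity, with 6 differences and no gap. A stretch of 120 aligned bases, from base 579 to 698 of the alignment, holds 3 of the 6, marked in capitals (GENCODE M21 transcripts).
Pcna: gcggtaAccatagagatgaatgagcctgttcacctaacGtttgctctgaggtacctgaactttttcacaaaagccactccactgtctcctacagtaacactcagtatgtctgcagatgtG
Pcna-ps2: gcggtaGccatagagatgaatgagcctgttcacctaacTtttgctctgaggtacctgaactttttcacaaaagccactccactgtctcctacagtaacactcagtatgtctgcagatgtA
Counted from 1 at the 5′ end of the stretch, with the Pcna base first, the differences are A7G, G39T and G120A. Reads between such positions match both loci.

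Over the whole module, summed levels overlapped between groups, apart from a narrow gap between DREADD Pilo and CAG-GFP Sham that depended on the scaling. The 33 members summed to 476, 321 and 205 CPM in DREADD Pilo, to 334, 370.5, 540.2 and 515 CPM in CAG-GFP Pilo, to 374, 527, 480.3 and 1030.1 CPM in DREADD Sham and to 561, 505 and 477 CPM in CAG-GFP Sham. The group means were 334 ± 136 CPM in DREADD Pilo (SD, n = 3), 439.7 ± 103 in CAG-GFP Pilo (n = 4), 603 ± 292 in DREADD Sham (n = 4) and 515 ± 42.6 in CAG-GFP Sham (n = 3). DREADD Sham 4 stood above all other libraries, and DREADD Pilo 3 was the lowest. The highest DREADD Pilo library lay just below the lowest CAG-GFP Sham library with TMM. With RLE size factors DREADD Pilo 1 had 483 CPM, against 460.45 to 537 in CAG-GFP Sham, and with library totals alone 522, against 326 to 399, so that the groups overlapped or DREADD Pilo 1 was the higher. The largest distance between group means, from DREADD Pilo to DREADD Sham, was smaller than the SD of DREADD Sham. Abundant members weigh most in such a sum. In CAG-GFP Sham the highest means were those of Pcna (141 CPM), Orc6 (120) and Slbp (81.3). The same members averaged 26.8, 39.2 and 42.6 CPM in DREADD Pilo, 56.0, 61.5 and 34.7 in CAG-GFP Pilo, and 58.4, 56.2 and 68.2 in DREADD Sham. The sum therefore says little about the members with few counts.

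Of the 33 members, 32, 23 and 30 had a count in the DREADD Pilo libraries, 28, 29, 33 and 15 in CAG-GFP Pilo, 30, 24, 24 and 29 in DREADD Sham, and 24, 20 and 22 in CAG-GFP Sham. Mcm2, Cdc6, Chaf1a, Chaf1b and Dtl had 0 counts in all 3 CAG-GFP Sham libraries. Compared per length over all 14 libraries, the most abundant members were Pcna (28.6 CPM per kb of exon), Orc6 (27.4), Gins4 (24.2) and Fen1 (12.8), and the least abundant were Pole (0.101) and Mcm10 (0.140). The processed pseudogenes of 6 members were in the table and are taken up with Pcna.

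**Figure D1:**
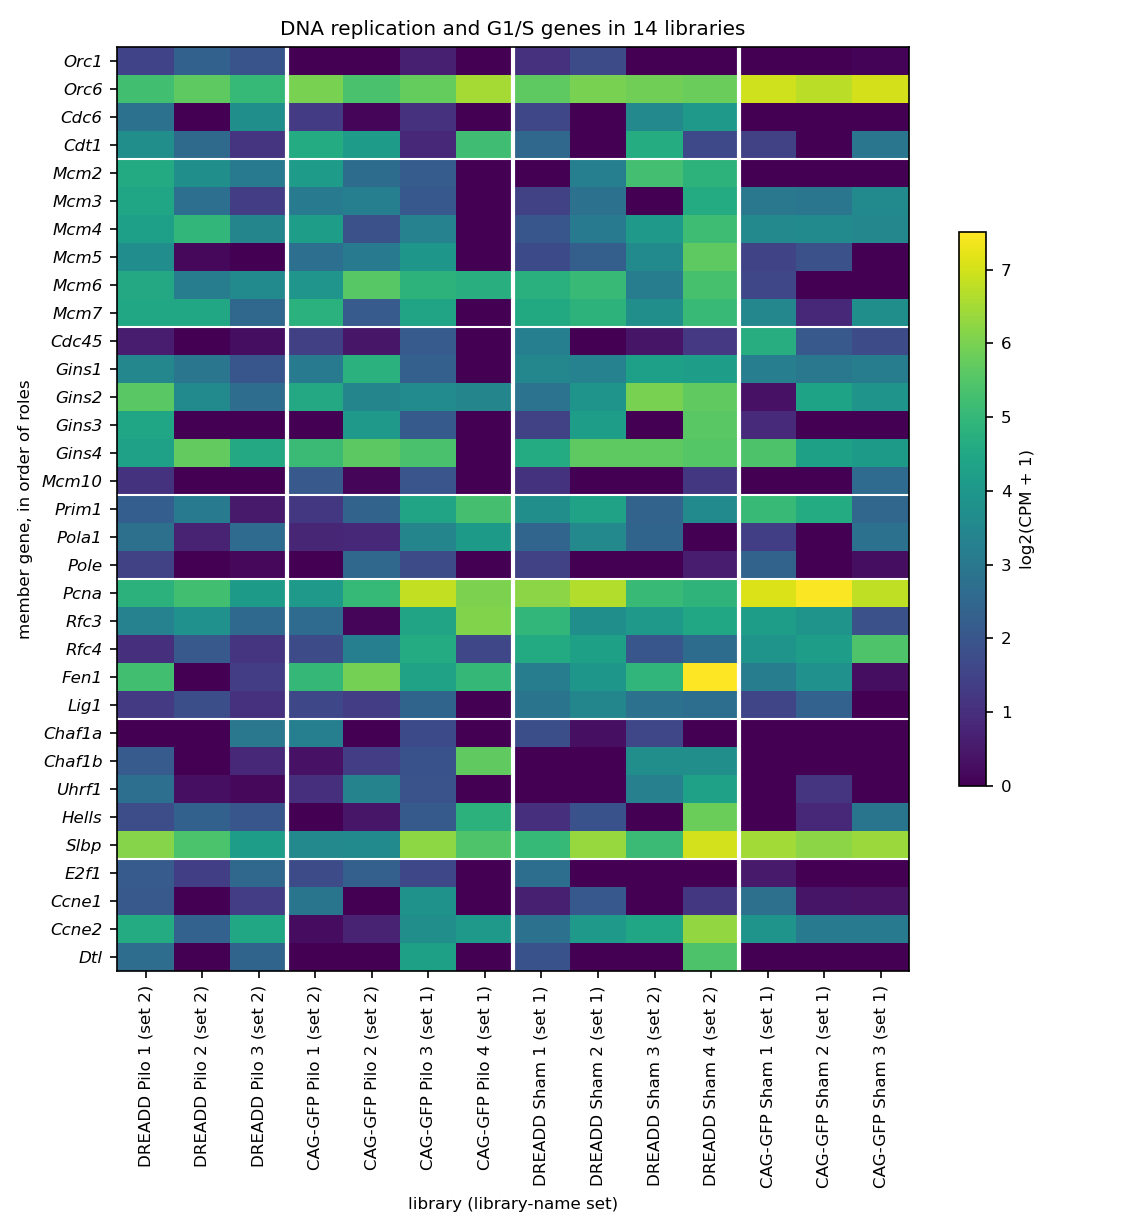
Heat map of log2(CPM + 1) for the 33 members (rows, in order of roles, with white lines between roles) in the 14 libraries (columns, with white lines between groups and the library-name set in brackets). Orc6, Pcna and Slbp are among the members detected in every library, while CAG-GFP Pilo 4 had 18 members at 0.

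**Figure D2:**
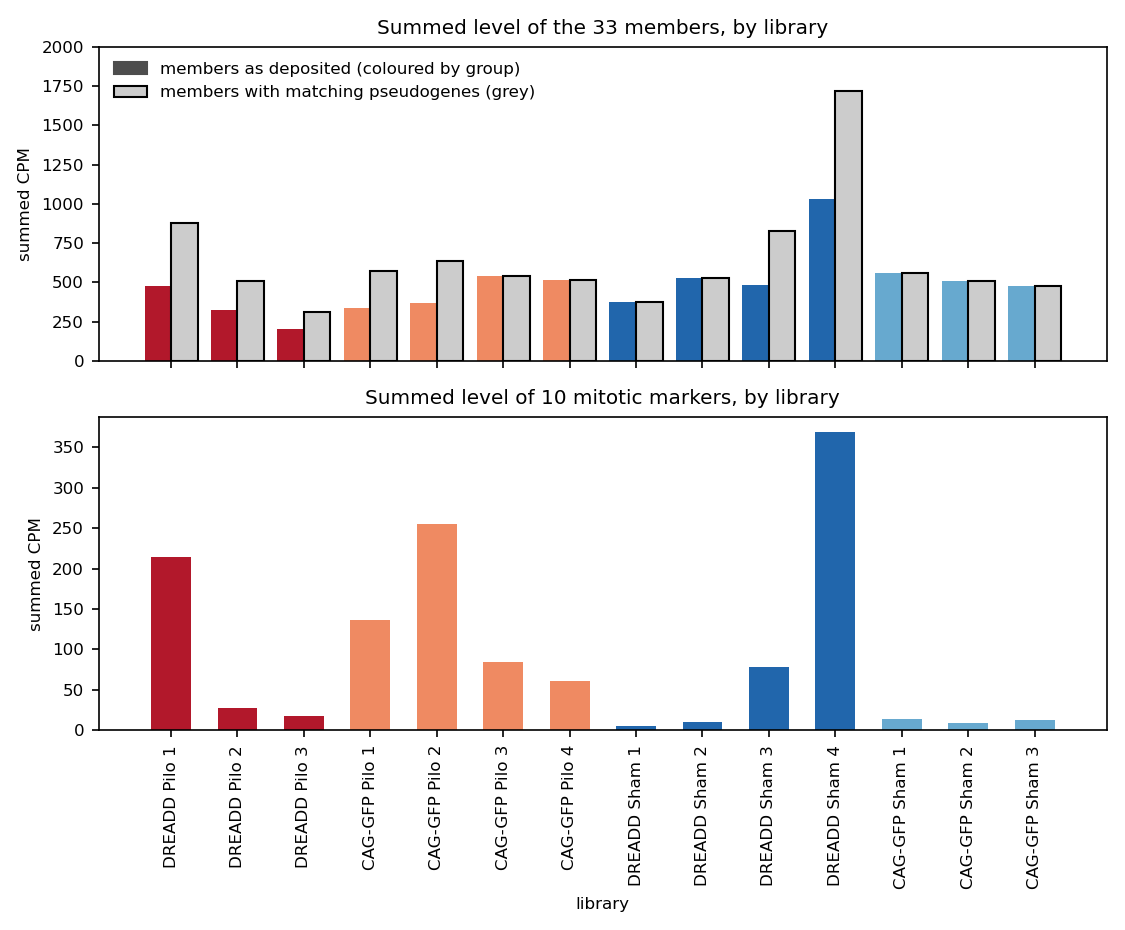
Upper panel: summed CPM of the 33 members per library, as deposited (coloured by group) and with the counts of 6 matching pseudogenes added (grey). Lower panel: summed CPM of 10 mitotic markers in the same libraries. DREADD Sham 4 was highest in both panels, at 1030.1 CPM for the members as deposited and 369 CPM for the mitotic markers.

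The origin recognition and licensing factors were dominated by Orc6, the smallest subunit of the origin recognition complex (positions on GRCm38, ENSMUSG00000031697.7, chr8:85299632-85308278, plus strand). Orc6 had 36.6, 49.3 and 31.7 CPM in DREADD Pilo, 63.5, 40.3, 52.6 and 89.7 in CAG-GFP Pilo, 49.3, 62.8, 58.5 and 54.3 in DREADD Sham, against 124, 106 and 130.0 in CAG-GFP Sham. All 3 CAG-GFP Sham libraries were above every other library. Orc1, the large ATP-binding subunit of the same complex (ENSMUSG00000028587.14, chr4:108579423-108614833, plus strand), was near the limit of detection. Orc1 had 1.84, 4.02 and 2.89 CPM in DREADD Pilo, 0, 0, 0.567 and 0 in CAG-GFP Pilo, 1.104, 2.27, 0 and 0 in DREADD Sham, against 0, 0 and 0.0523 in CAG-GFP Sham. It had a count in every DREADD Pilo library, in 1 of 4 CAG-GFP Pilo libraries and in 2 of 4 DREADD Sham libraries. Exons of a gene on the other strand, Gm12743, share 10.8% of the exon bases of Orc1, and the sources used here do not give the strand rule of the counting.

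Cdc6, the ATPase that joins the origin complex to load MCM (ENSMUSG00000017499.11, chr11:98907801-98923940, plus strand), was read in all groups but CAG-GFP Sham. Cdc6 had 6.06, 0 and 12.4 CPM in DREADD Pilo, 1.504, 0.09202, 1.08 and 0 in CAG-GFP Pilo, 2.01, 0, 10.7 and 15.3 in DREADD Sham, against 0, 0 and 0 in CAG-GFP Sham. The highest values were in DREADD Pilo 3 and in DREADD Sham 3 and 4, all of set 2, where its pseudogene Gm9430 also drew reads in DREADD Pilo 1 and DREADD Sham 3 and 4. Cdt1 had 12.1, 5.05 and 1.22 CPM in DREADD Pilo, 23.6, 16.4, 0.838 and 36.02 in CAG-GFP Pilo, 4.79, 0, 24.3 and 2.17 in DREADD Sham, against 1.79, 0 and 6.699 in CAG-GFP Sham. Cdt1, the partner of Cdc6 in loading, overlapped between all groups.

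The 6 subunits of the MCM ring, the replicative helicase, summed to higher values in DREADD Pilo and DREADD Sham than in CAG-GFP Sham without overlap, and CAG-GFP Pilo overlapped through its replicate 4. The ring had 117, 78.4 and 34.5 CPM in DREADD Pilo, 87.96, 73.6, 78.3 and 25.6 in CAG-GFP Pilo, 56.01, 86.2, 84.3 and 207 in DREADD Sham, against 31.9, 21.3 and 33.4 in CAG-GFP Sham. The lowest DREADD Pilo library and the highest CAG-GFP Sham library were close. The single subunits differed in pattern.

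Mcm2, the subunit at the gate of the ring (ENSMUSG00000002870.7, chr6:88883474-88898780, minus strand), separated DREADD Pilo from CAG-GFP Sham. Mcm2 had 22.99, 12.3 and 7.35 CPM in DREADD Pilo, 16.4, 5.24, 3.55 and 0 in CAG-GFP Pilo, 0, 8.49, 37.9 and 28.2 in DREADD Sham, against 0, 0 and 0 in CAG-GFP Sham. It was absent from all CAG-GFP Sham libraries, and also from CAG-GFP Pilo 4 and DREADD Sham 1. Mcm6 (ENSMUSG00000026355.7, chr1:128331590-128359664, minus strand), which sits beside Mcm2 in the ring, was read in every library outside CAG-GFP Sham. Mcm6 had 22.2, 7.93 and 11.1 CPM in DREADD Pilo, 14.1, 46.3, 27.7 and 25.6 in CAG-GFP Pilo, 26.4, 32.3, 7.99 and 38.9 in DREADD Sham, against 2.04, 0 and 0 in CAG-GFP Sham. In CAG-GFP Sham it had 41 counts, all in replicate 1, and no other group overlapped with it.

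The remaining subunits did not follow Mcm2 and Mcm6. Mcm3 had 20.3, 5.77 and 1.56 CPM in DREADD Pilo, 7.42, 8.37, 3.23 and 0 in CAG-GFP Pilo, 1.72, 6.06, 0 and 23.7 in DREADD Sham, against 7.103, 6.75 and 10.9 in CAG-GFP Sham. Mcm4 had 17.9, 30.4 and 9.796 CPM in DREADD Pilo, 17.4, 2.67, 9.02 and 0 in CAG-GFP Pilo, 2.99, 7.78, 15.4 and 35.1 in DREADD Sham, against 10.6, 11.04 and 10.2 in CAG-GFP Sham. Mcm3 and Mcm4 had counts in all CAG-GFP Sham libraries, and the ranges of DREADD Pilo and DREADD Sham enclosed those values. Mcm5 had 11.8, 0.1201 and 0 CPM in DREADD Pilo, 5.73, 7.55, 14.8 and 0 in CAG-GFP Pilo, 2.23, 3.82, 10.8 and 49.1 in DREADD Sham, against 1.89, 2.66 and 0 in CAG-GFP Sham. Mcm7 had 21.5, 21.9 and 4.68 CPM in DREADD Pilo, 26.9, 3.497, 20.04 and 0 in CAG-GFP Pilo, 22.7, 27.8, 12.2 and 32.2 in DREADD Sham, against 10.2, 0.789 and 12.3 in CAG-GFP Sham. Mcm5 and Mcm7 overlapped between all groups, with DREADD Sham 4 the highest library for both. Within the ring, Mcm3 averaged 9.21 ± 9.84 CPM in DREADD Pilo and 8.27 ± 2.32 CPM in CAG-GFP Sham (SD, n = 3 each), and Mcm2 averaged 14.2 ± 7.995 CPM in DREADD Pilo against no count in CAG-GFP Sham.

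Among the helicase activators, Cdc45, the factor that joins MCM and GINS in the running helicase (ENSMUSG00000000028.10, chr16:18780447-18811987, minus strand), had its highest mean in CAG-GFP Sham. Cdc45 had 0.497, 0 and 0.223 CPM in DREADD Pilo, 1.69, 0.368, 3.45 and 0 in CAG-GFP Pilo, 8.42, 0, 0.3497 and 1.39 in DREADD Sham, against 24.8, 3.304 and 2.303 in CAG-GFP Sham. The CAG-GFP Sham mean rested on replicate 1, and DREADD Pilo lay below all 3 CAG-GFP Sham libraries. The GINS complex of Gins1 to Gins4 completes the helicase. Gins1 had 10.03, 6.67 and 3.01 CPM in DREADD Pilo, 7.61, 26.6, 3.97 and 0 in CAG-GFP Pilo, 10.2, 9.04, 17.95 and 17.3 in DREADD Sham, against 8.196, 7.05 and 8.01 in CAG-GFP Sham. DREADD Sham lay above CAG-GFP Sham without overlap for Gins1, and the 2 Pilo groups enclosed the CAG-GFP Sham values.

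Gins2 had 47.7, 11.1 and 5.45 CPM in DREADD Pilo, 22.4, 9.75, 11.2 and 9.63 in CAG-GFP Pilo, 6.26, 13.9, 62.5 and 50.2 in DREADD Sham, against 0.298, 19.4 and 13.9 in CAG-GFP Sham. Gins3 had 20.7, 0 and 0 CPM in DREADD Pilo, 0, 15.4, 3.38 and 0 in CAG-GFP Pilo, 1.79, 17.3, 0 and 47.7 in DREADD Sham, against 0.894, 0 and 0 in CAG-GFP Sham. Gins4 had 18.6, 51.7 and 22.4 CPM in DREADD Pilo, 34.1, 48.1, 39.8 and 0 in CAG-GFP Pilo, 23.6, 49.4, 48.8 and 45.3 in DREADD Sham, against 41.5, 18.3 and 16.1 in CAG-GFP Sham. Gins2, Gins3 and Gins4 overlapped between all groups, and Gins3 was at 0 in 7 of 14 libraries. Exons of Gse1 on the other strand share 67.3% of the exon bases of Gins2. Mcm10, which helps to start the helicase, had a count in 7 libraries and reached 5.18 CPM at most.

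Primase and polymerase genes were low. Prim1 had 3.77, 7.81 and 0.445 CPM in DREADD Pilo, 1.32, 4.23, 20.1 and 37.9 in CAG-GFP Pilo, 12.2, 18.96, 4.197 and 11.1 in DREADD Sham, against 33.4, 23.5 and 4.61 in CAG-GFP Sham. Pola1 had 5.81, 0.661 and 5.12 CPM in DREADD Pilo, 0.752, 0.828, 9.64 and 16.0 in CAG-GFP Pilo, 4.47, 10.5, 4.37 and 0 in DREADD Sham, against 1.64, 0 and 5.91 in CAG-GFP Sham. Prim1 encodes the catalytic subunit of primase and Pola1 that of polymerase alpha, and both overlapped between all groups. Pole, the catalytic subunit of the leading-strand polymerase, had a count in 8 libraries and reached 4.78 CPM at most.

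Pcna, the sliding clamp that holds polymerases on DNA, had its lowest mean in DREADD Pilo. Pcna had 27.6, 36.9 and 15.9 CPM in DREADD Pilo, 15.5, 31.9, 111 and 65.02 in CAG-GFP Pilo, 72.3, 99.7, 32.6 and 28.8 in DREADD Sham, against 139, 175 and 109 in CAG-GFP Sham. CAG-GFP Sham lay above all DREADD Pilo and all DREADD Sham libraries. The values also split by library-name set without overlap: 15.5 to 36.9 CPM in set 2, against 65.0 to 175 CPM in set 1.

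The pseudogene Pcna-ps2 showed the opposite split. Pcna-ps2 had 301, 168 and 96.8 CPM in DREADD Pilo, 227, 256, 0 and 0 in CAG-GFP Pilo, 0, 0, 278 and 482 in DREADD Sham, against 0, 0 and 0 in CAG-GFP Sham. It had 870 to 11091 counts in each set 2 library and 0 in each of the 7 set 1 libraries. The sum of Pcna and Pcna-ps2 had 329, 205 and 113 CPM in DREADD Pilo, 242, 288, 111 and 65.02 in CAG-GFP Pilo, 72.3, 99.7, 311 and 511 in DREADD Sham, against 139, 175 and 109 in CAG-GFP Sham. On the sum, DREADD Pilo and CAG-GFP Sham overlapped, and the 4 highest libraries were of set 2. The sources used here do not say how reads with several matches were counted.

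**Figure D3:**
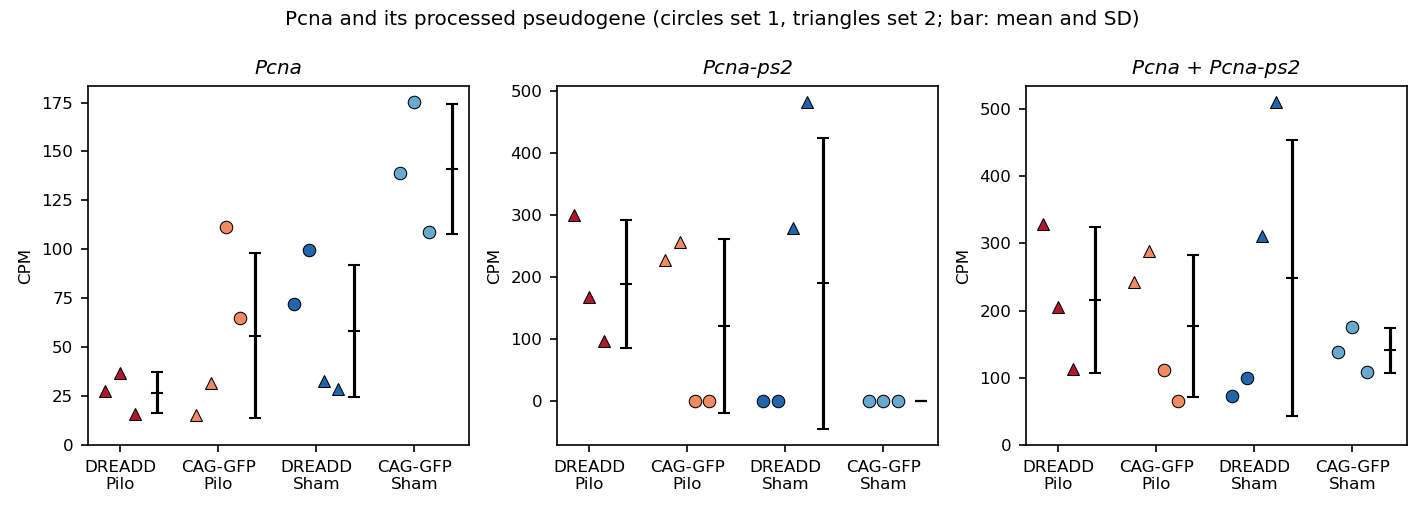
CPM of Pcna, of its processed pseudogene Pcna-ps2 and of their sum, by group and library; circles are set 1 libraries, triangles set 2 libraries, and bars give mean and SD. Pcna-ps2 is at 0 in every circle and at 96.8 to 482 CPM in every triangle.

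Pseudogenes of 5 further members also drew counts. Slbp and Gm8396, Uhrf1 and Gm5648, Cdc6 and Gm9430, Mcm4 and Gm9577, and Mcm6 and Gm15654 matched at 91.134% to 98.302% identity. Counts at these pseudogenes were in set 2 libraries, except 5 counts at Gm15654 in CAG-GFP Pilo 3. With the 6 pseudogenes added, the module summed to 881, 508 and 309.9 CPM in DREADD Pilo, to 569, 636, 540.3 and 515 CPM in CAG-GFP Pilo, to 374, 527, 829 and 1723 CPM in DREADD Sham, and to 561, 505 and 477 CPM in CAG-GFP Sham, where no count was added. The means were then 566 ± 289.9 CPM for DREADD Pilo, 565 ± 52.2 for CAG-GFP Pilo, 863 ± 603 for DREADD Sham and 515 ± 42.6 for CAG-GFP Sham (SD).

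The clamp loader subunits Rfc3 and Rfc4 place Pcna on DNA. Rfc3 had 8.99, 12.8 and 4.898 CPM in DREADD Pilo, 5.17, 0.09202, 19.9 and 67.2 in CAG-GFP Pilo, 30.7, 12.3, 15.3 and 21.3 in DREADD Sham, against 17.3, 13.95 and 2.67 in CAG-GFP Sham. Rfc4 had 1.04, 3.24 and 1.22 CPM in DREADD Pilo, 2.35, 8.37, 23.8 and 2.02 in CAG-GFP Pilo, 22.97, 18.4, 3.03 and 5.303 in DREADD Sham, against 13.8, 17.2 and 42.6 in CAG-GFP Sham. Rfc4 (ENSMUSG00000022881.10, chr16:23113943-23127737, minus strand) was below every CAG-GFP Sham library in all 3 DREADD Pilo libraries, and Rfc3 overlapped. By set, the set 2 libraries of CAG-GFP Pilo had 2.35 and 8.37 CPM and its set 1 libraries 23.8 and 2.02 CPM. DREADD Sham had 3.03 and 5.30 CPM in set 2 and 23.0 and 18.4 CPM in set 1. Exons of Eif4a2 on the other strand share 12.7% of the exon bases of Rfc4.

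Fen1, the flap nuclease, and Lig1, the ligase, finish Okazaki fragments. Fen1 had 36.7, 0 and 1.56 CPM in DREADD Pilo, 31.2, 61.1, 19.1 and 30.8 in CAG-GFP Pilo, 7.95, 14.6, 29.96 and 182 in DREADD Sham, against 7.85, 12.9 and 0.209 in CAG-GFP Sham. Lig1 had 1.44, 2.52 and 1.11 CPM in DREADD Pilo, 2.07, 1.56, 4.36 and 0 in CAG-GFP Pilo, 6.45, 9.98, 6.06 and 5.56 in DREADD Sham, against 1.99, 4.09 and 0 in CAG-GFP Sham. CAG-GFP Pilo lay above CAG-GFP Sham for Fen1, and DREADD Sham lay above every library of the other 3 groups for Lig1. The gene Gm10143 on the other strand shares 78.8% of the exon bases of Fen1, so its value is uncertain.

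Chromatin assembly factor 1 places histones on new DNA, and its subunit Chaf1b (ENSMUSG00000022945.7, chr16:93883901-93906115, plus strand) was absent from CAG-GFP Sham. Chaf1b had 3.43, 0 and 0.779 CPM in DREADD Pilo, 0.282, 1.56, 2.71 and 49.9 in CAG-GFP Pilo, 0, 0, 12.01 and 12.1 in DREADD Sham, against 0, 0 and 0 in CAG-GFP Sham. CAG-GFP Pilo 4 held the highest value, and both DREADD Sham libraries of set 1 were at 0. The larger subunit Chaf1a had 0 counts in CAG-GFP Sham and reached 8.46 CPM in CAG-GFP Pilo 1. In DREADD Pilo all 64 of its counts were in DREADD Pilo 3. On the opposite strand Ubxn6 covers 52.5% of the exon length of Chaf1a; where counting does not use strand, their reads cannot be told apart. Uhrf1, which keeps DNA methylation through replication, and Hells, a chromatin remodeller of the same process, were low in most libraries. Uhrf1 had 5.71, 0.2402 and 0.111 CPM in DREADD Pilo, 1.03, 9.202, 2.81 and 0 in CAG-GFP Pilo, 0, 0, 8.74 and 18.6 in DREADD Sham, against 0, 1.23 and 0 in CAG-GFP Sham. Hells had 2.43, 4.02 and 3.01 CPM in DREADD Pilo, 0, 0.368, 3.35 and 27.2 in CAG-GFP Pilo, 1.08, 2.69, 0 and 55.5 in DREADD Sham, against 0, 0.838 and 6.54 in CAG-GFP Sham. For both, DREADD Sham 4 was the highest library and the groups overlapped.

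Slbp binds the stem-loop of replication-dependent histone mRNAs. Slbp had 69.6, 40.7 and 17.6 CPM in DREADD Pilo, 10.7, 11.1, 74.8 and 42.1 in CAG-GFP Pilo, 31.98, 80.3, 33.6 and 127 in DREADD Sham, against 88.5, 73.4 and 82.01 in CAG-GFP Sham. The 3 DREADD Pilo libraries were below the 3 CAG-GFP Sham libraries. With Gm8396 added, Slbp had 158, 57.7 and 25.3 CPM in DREADD Pilo, 17.9, 18.4, 74.8 and 42.1 in CAG-GFP Pilo, 31.98, 80.3, 74.8 and 289 in DREADD Sham, against 88.5, 73.4 and 82.01 in CAG-GFP Sham. On that sum the groups overlapped.

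Of the G1/S regulators, Ccne2, 1 of the cyclin E genes, was the most abundant. Exons of Ints8 on the other strand share 17.4% of the exon bases of Ccne2. Ccne2 had 23.6, 4.14 and 21.6 CPM in DREADD Pilo, 0.188, 0.644, 12.2 and 15.3 in CAG-GFP Pilo, 5.91, 15.4, 20.8 and 77.8 in DREADD Sham, against 13.7, 7.35 and 7.48 in CAG-GFP Sham. Dtl had 5.46, 0 and 4.34 CPM in DREADD Pilo, 0, 0, 18.2 and 0 in CAG-GFP Pilo, 2.70, 0, 0 and 41.3 in DREADD Sham, against 0, 0 and 0 in CAG-GFP Sham. Dtl, the adaptor that sends Cdt1 for degradation in S phase, was at 0 in 9 of 14 libraries. E2f1, the activator of G1/S genes, was at 3.43, 1.62 and 4.68 CPM in DREADD Pilo, against 0.447, 0 and 0 CPM in CAG-GFP Sham. These did not overlap, and the CAG-GFP Pilo range of 0 to 3.96 CPM and the DREADD Sham range of 0 to 5.60 CPM overlapped both. Ccne1, the other cyclin E gene, stayed under 5 CPM in every group mean, with CAG-GFP Pilo 3 the highest library at 13.1 CPM.

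**Figure D4:**
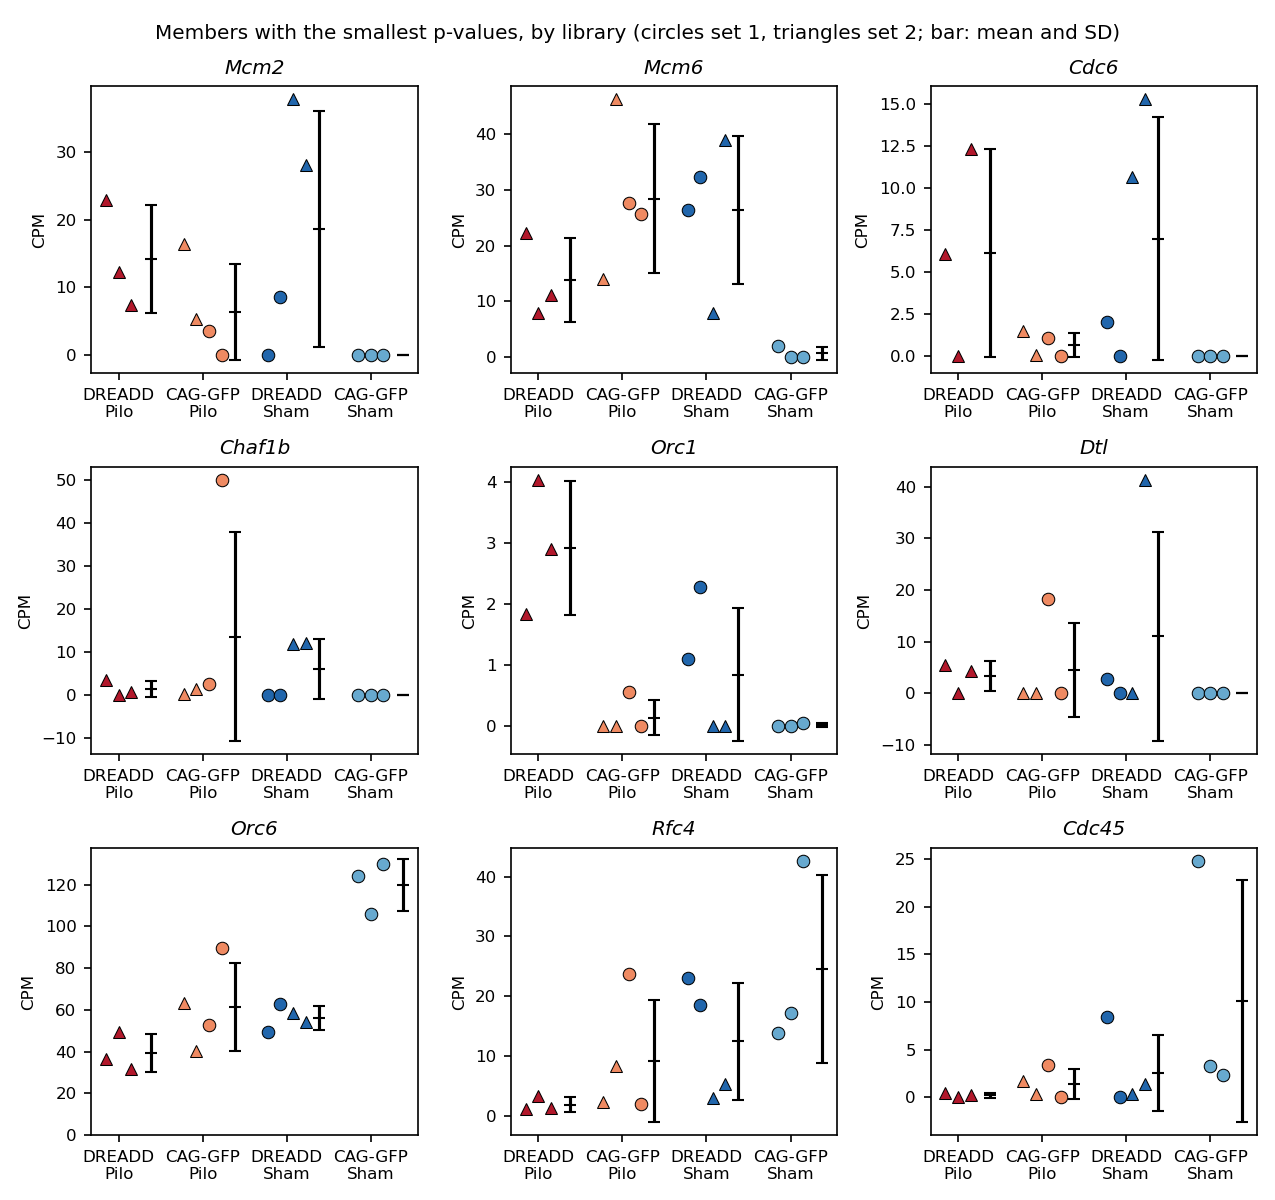
CPM of 9 members by group and library; circles are set 1 libraries, triangles set 2 libraries, and bars give mean and SD. Mcm2, Cdc6, Chaf1b and Dtl are at 0 in all CAG-GFP Sham libraries, Orc1 has 1 count there, and Orc6 is highest there.

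No member passed the test in any of the 6 comparisons, although some did with other tools. All 14 libraries entered 1 edgeR quasi-likelihood model, and p-values were adjusted by Benjamini and Hochberg's method over the 18676 genes that passed the filter on low counts, as all 33 members did. Fold changes are log2 differences, first-named group over second, with their SE. Against CAG-GFP Sham, DESeq2 called 7 members in DREADD Pilo, 4 in CAG-GFP Pilo and 5 in DREADD Sham, and it called 4 in the interaction. In the same 3 comparisons limma voom called 2, 1 and 1, and 0 in the interaction; neither tool called a member in DREADD Pilo against CAG-GFP Pilo or DREADD Sham. Of all 18676 genes, DESeq2 called 14.6% in DREADD Pilo, 11.9% in CAG-GFP Pilo and 14.2% in DREADD Sham against CAG-GFP Sham, and 7.8% in the interaction. Limma voom called 5.38%, 4.16% and 4.59% in the same 3 comparisons and 0.198% in the interaction. The members' counts are to be read against these shares. Mcm6 was called by both tools in each comparison with CAG-GFP Sham, and Mcm2 by DESeq2 in each. DESeq2 also called Chaf1a in each and in the interaction. Its fitted log2 values were 21.6 to 22.7 in the 3 comparisons, against 0 counts in CAG-GFP Sham. In DREADD Pilo the Chaf1a call rested on 64 counts in 1 library.

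In CAG-GFP Pilo against CAG-GFP Sham, the effect of seizures without a DREADD, no member was past an adjusted p of 0.05 (background over all tested genes 0.241%). At an unadjusted p under 0.05, 4 of 33 members were higher and 0 lower, against 15.4% of all genes in either direction. Mcm6 was 5.38 ± 1.72 higher (adjusted p = 0.266, edgeR). Mcm2 was at least 64.5-fold higher (adjusted p = 0.276) and Chaf1b at least 481-fold higher (adjusted p = 0.285). These bounds set the 0 counts of CAG-GFP Sham to 3 counts over the group. The Chaf1b bound rested on CAG-GFP Pilo 4, which held 2674 of 2804 counts; without that library the fitted log2 difference was 8.04 instead of 11.34. The Mcm6 value was 12.40 without CAG-GFP Sham 1, the 1 library of that group with counts. That value depends on the small prior count that the fit adds and is no measured difference. Mcm6, Fen1 and Chaf1b were higher and Orc6 was lower in every library (background 6.55% of genes higher and 12.2% lower). Without CAG-GFP Pilo 4, 7 members were higher in every library (background 14.3% higher and 13.4% lower) and 7 had an unadjusted p under 0.05 (background 18.5% in either direction).

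In DREADD Sham against CAG-GFP Sham, which compares the constructs, both with CNO, without seizures, no member passed (background 0.3%). Unadjusted p-values under 0.05 were found for 5 members that were higher and 1 that was lower, against 18.6% of all genes. Mcm2 was at least 277-fold higher (adjusted p = 0.169), Mcm6 was 5.27 ± 1.71 higher (adjusted p = 0.209) and Cdc6 was at least 109.5-fold higher (adjusted p = 0.224, edgeR). Without CAG-GFP Sham 1 the Mcm6 value was 12.31, which again depends on the prior count. Mcm6, Gins1 and Lig1 were higher in every library (background 9.01%), and Orc6 and Pcna were lower in every library (background 12.7%). The median member was 1.57 higher, but 0.15 higher within library-name set 1, where DREADD Sham 1 and 2 face the 3 CAG-GFP Sham libraries.

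In DREADD Pilo against CAG-GFP Sham, no member passed (background 0.225%). With an unadjusted p under 0.05, 5 members were higher and 3 lower, against 19.2% of all genes. Mcm2 was at least 318-fold higher (adjusted p = 0.187, edgeR). Orc6 was lower by a log2 difference of -1.61 ± 0.52 (adjusted p = 0.199). Pcna differed by -2.40 ± 0.77 (adjusted p = 0.202), and by 0.61 ± 0.77 (adjusted p = 0.756) with Pcna-ps2 added, an alternative chosen after seeing the data. Orc1, Mcm2, Mcm6 and E2f1 were higher in every library (background 19.8%), and Orc6, Cdc45, Pcna, Rfc4 and Slbp were lower in every library (background 14.9%). For Orc1, 130 counts stood against 1 count, a ratio of 169 with a 95% exact counting interval of 29.8 to 6728. The interval covers the counting error of reads only. Dtl was at least 64.6-fold higher on the same kind of bound, with counts in DREADD Pilo 1 and 3 only.

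In DREADD Pilo against CAG-GFP Pilo, which compares the constructs, both with CNO, within seizure mice, no member passed. The background was 0%, with 0 of 18676 genes past the test in edgeR. DESeq2 called 171 genes, or 0.916%, and limma voom 0. At an unadjusted p under 0.05 there were 0 members, against 5.36% of all genes. Rfc4 differed by -2.31 ± 1.26 (adjusted p = 0.882), Orc1 by 4.27 ± 2.66 (adjusted p = 0.896) and Pcna by -1.06 ± 0.71 (adjusted p = 0.922, edgeR). Within set 2, where DREADD Pilo faces CAG-GFP Pilo 1 and 2, Pcna differed by 0.19. Orc1 alone was higher in every library (background 5.69%), and no member was lower in every library (background 3.15%). Without CAG-GFP Pilo 3, Rfc4 differed by -1.20, Pcna by -0.48 and Orc1 by 9.04. CAG-GFP Pilo 3 held all 23 Orc1 counts of its group, so the 9.04 depends on the prior count and is no bound.

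In DREADD Pilo against DREADD Sham, the effect of seizures in DREADD mice, no member passed (background 0%, with 0 of 18676 genes past the test in edgeR; DESeq2 called 158, or 0.846%, and limma voom 0). At an unadjusted p under 0.05 there was 1 member, Rfc4, against 5.18% of all genes. Rfc4 differed by -2.75 ± 1.29 (adjusted p = 0.956), Pcna by -1.12 ± 0.71 (adjusted p = 1) and Cdc45 by -3.37 ± 2.57 (adjusted p = 1, edgeR). Cdc45 differed by -1.25 without DREADD Sham 1. No member was higher in every library (background 4.39%), and Lig1 was lower in every library (background 2.23%).

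The difference between the 2 seizure effects, DREADD minus CAG-GFP, was tested as an interaction, and no member passed (background 0%, with 0 of 18676 genes past the test in edgeR; DESeq2 called 1456 and limma voom 37). With an unadjusted p under 0.05, 3 members were lower and 0 higher, against 11.7% of all genes. They were Mcm6 at -6.31 ± 2.16 (adjusted p = 0.38), Mcm2 at -10.62 ± 3.69 (adjusted p = 0.41) and Chaf1b at -13.43 ± 4.80 (adjusted p = 0.412, edgeR). CAG-GFP Sham had 0 counts of Mcm2 and Chaf1b, so their fitted differences depend on the prior count and are no bound. Without CAG-GFP Sham 1 the Mcm6 value was -13.36, which depends on the prior count in the same way.

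Medians of the 33 log2 differences stood beside those of all tested genes as follows. Against CAG-GFP Sham the member median was 0.79 in DREADD Pilo, 1.03 in CAG-GFP Pilo and 1.57 in DREADD Sham, and the median of all genes was 0.66, 0.41 and 0.53 in the same comparisons. These 3 comparisons share the CAG-GFP Sham libraries. In DREADD Pilo the member median was -0.65 against CAG-GFP Pilo and -0.68 against DREADD Sham, and that of all genes 0.28 and 0.07. For the interaction the member median was -1.35 and that of all genes -0.43. Against CAG-GFP Sham, positive values were found for 21 of 33 members in DREADD Pilo (63.5% of all genes), 22 in CAG-GFP Pilo (58.6%) and 23 in DREADD Sham (61.1%). They were found for 12 members in DREADD Pilo against CAG-GFP Pilo (58.4% of all genes), for 7 members against DREADD Sham (52.3%) and for 5 members in the interaction (42.8%).

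Single libraries moved these medians. Without DREADD Pilo 1, DREADD Pilo against CAG-GFP Sham had a member median of -0.35, beside 0.50 for all genes, and without CAG-GFP Sham 2 it had 0.47, beside 0.70. With the set as a covariate the same comparison had 0.018, beside 0.61 for all genes. In each of these the member median was below that of all genes, the other way round from the 14-library value. In DREADD Sham against CAG-GFP Sham within set 1 the 0.15 of the members stood beside 0.18 for all genes. CAG-GFP Pilo against CAG-GFP Sham within set 1 went the other way, with 1.53 for the members beside -0.008 for all genes. Without CAG-GFP Pilo 3, CAG-GFP Pilo against CAG-GFP Sham had 0.31, beside 0.07 for all genes. Without CAG-GFP Sham 1 the interaction had -2.36. Within set 2, DREADD Pilo against CAG-GFP Pilo had a member median of 0.06, beside 0.31 for all genes. DREADD Pilo against DREADD Sham had -1.05 there, beside 0.26.

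**Figure D5:**
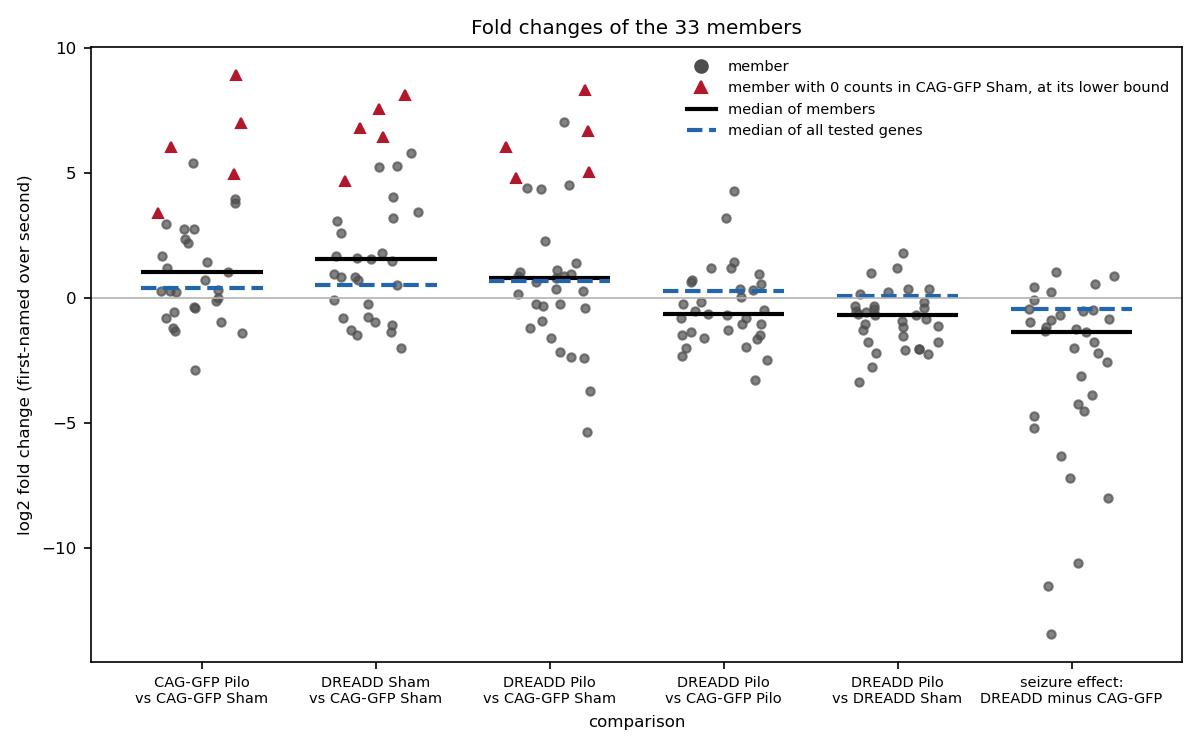
Log2 fold change of each of the 33 members (points) in the 6 comparisons, with the median of the members (black line) and of all 18676 tested genes (dashed blue line). Red triangles are the 5 members with 0 counts in CAG-GFP Sham, drawn at their lower bound. The lines lie at 0.79 and 0.66 in DREADD Pilo against CAG-GFP Sham, an order that turned round without DREADD Pilo 1, without CAG-GFP Sham 2 or with the set as a covariate, and at -1.35 and -0.43 in the interaction.

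None of 39 other replication factors, 29 other G1/S regulators and 8 genes of deoxynucleotide supply passed the test in any of the 6 comparisons with edgeR. At an unadjusted p under 0.05 in CAG-GFP Pilo against CAG-GFP Sham, 3 other replication factors were higher and 2 lower, 3 other G1/S regulators were higher and 0 lower, and 2 deoxynucleotide genes were higher and 0 lower. In DREADD Sham against CAG-GFP Sham the higher and lower counts were 6 and 2, 4 and 1, and 3 and 0 in the same order of lists, and in DREADD Pilo against CAG-GFP Sham they were 4 and 3, 4 and 0, and 1 and 0. Against CAG-GFP Pilo, DREADD Pilo had 0 and 2, 1 and 0, and 0 and 0. Against DREADD Sham all were 0. In the interaction the counts were 0 and 1, 1 and 1, and 0 and 2. Of all genes, 15.4%, 18.6% and 19.2% were under 0.05 in either direction in the first 3 comparisons, in the order given. The shares were 5.36%, 5.18% and 11.7% in the last 3, and the counts of the lists are to be read against them. Against CAG-GFP Sham, DESeq2 called 8, 2 and 1 genes of the 3 lists in DREADD Pilo, 5, 2 and 2 in CAG-GFP Pilo and 7, 3 and 3 in DREADD Sham, and 2, 1 and 1 in the interaction, while limma voom called at most 1 gene of a list in any comparison; the shares of all genes called by these tools are given above.

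Ccnd1, cyclin D1 of the G1 phase, had the smallest p of its list in each comparison with CAG-GFP Sham. Ccnd1 had 99.7, 39.5 and 10.7 CPM in DREADD Pilo, 74.3, 23.1, 25.8 and 187 in CAG-GFP Pilo, 49.9, 18.4, 115 and 101 in DREADD Sham, against 9.49, 0.937 and 2.51 in CAG-GFP Sham. All libraries outside CAG-GFP Sham were above those of CAG-GFP Sham (CAG-GFP Pilo 4.17 ± 1.18, adjusted p = 0.209, edgeR).

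Rpa3, the small subunit of the single-strand binding protein RPA, led the other replication factors. Rpa3 had 10.7, 17.9 and 18.8 CPM in DREADD Pilo, 15.1, 7.64, 29.3 and 12.8 in CAG-GFP Pilo, 19.1, 26.96, 5.42 and 29.7 in DREADD Sham, against 91.0, 85.9 and 80.6 in CAG-GFP Sham. CAG-GFP Sham lay above all other libraries (CAG-GFP Pilo -2.40 ± 0.71, adjusted p = 0.234). Rnaseh2a, a subunit of the nuclease that removes RNA primers, was the first of that list in DREADD Pilo against CAG-GFP Sham. Rnaseh2a had 8.44, 13.8 and 7.01 CPM in DREADD Pilo, 9.96, 19.3, 114 and 90.1 in CAG-GFP Pilo, 81.1, 95.9, 3.21 and 2.56 in DREADD Sham, against 304, 277 and 336 in CAG-GFP Sham. It differed by -4.97 ± 1.37 (adjusted p = 0.152, edgeR), and outside CAG-GFP Sham it was at 2.56 to 19.3 CPM in set 2 and at 81.1 to 114 CPM in set 1.

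Rrm2, the S phase subunit of ribonucleotide reductase that makes deoxynucleotides for replication, is named in the title of the study. Rrm2 had 76.5, 0 and 0.891 CPM in DREADD Pilo, 22.4, 15.9, 17.3 and 99.7 in CAG-GFP Pilo, 10.04, 3.89, 106 and 389 in DREADD Sham, against 1.99, 4.63 and 6.65 in CAG-GFP Sham. CAG-GFP Pilo lay above CAG-GFP Sham without overlap (3.13 ± 1.90, adjusted p = 0.42), while DREADD Pilo overlapped every group. Tk1, thymidine kinase, led the deoxynucleotide list in the comparisons with CAG-GFP Sham. Tk1 had 16.3, 7.99 and 1.78 CPM in DREADD Pilo, 7.71, 8.47, 2.29 and 0 in CAG-GFP Pilo, 0, 0.227, 10.4 and 22.6 in DREADD Sham, against 0, 0 and 0 in CAG-GFP Sham. It was absent from CAG-GFP Sham, as Mcm2 was, and present in all DREADD Pilo libraries (adjusted p = 0.205, edgeR).

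The genes with the smallest p of their list in the remaining comparisons had large SE. For DREADD Pilo against CAG-GFP Pilo, Chtf18, part of an alternative clamp loader, differed by -3.60 ± 1.56 (adjusted p = 0.882) and Cdkn1c, the cyclin kinase inhibitor p57, by 6.27 ± 2.42 (adjusted p = 0.882). The mitotic cyclin Ccnb2 differed by -2.40 ± 2.14 (adjusted p = 0.967, edgeR). For DREADD Pilo against DREADD Sham, Rnaseh2a differed by -2.23 ± 1.17 (adjusted p = 0.979), Rrm2 by -2.30 ± 1.82 (adjusted p = 1), Cdkn1c by 3.13 ± 2.12 (adjusted p = 1) and the mitotic kinase Plk1 by 2.69 ± 3.00 (adjusted p = 1). In the interaction, Pole2, a subunit of polymerase epsilon, differed by -9.57 ± 4.06 (adjusted p = 0.412), and Ccnd1 by -4.67 ± 1.52 (adjusted p = 0.375).

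Mitotic markers, as markers of dividing cells, were set beside the module. Their 10 genes summed to 214, 27.9 and 18.4 CPM in DREADD Pilo, to 136, 255, 84.5 and 60.9 CPM in CAG-GFP Pilo, to 5.55, 9.85, 78.9 and 369 CPM in DREADD Sham, and to 14.4, 9.12 and 12.8 CPM in CAG-GFP Sham. All DREADD Pilo and all CAG-GFP Pilo libraries were above CAG-GFP Sham, and DREADD Sham enclosed it. DREADD Pilo 1 and DREADD Sham 4 were the highest of their groups for both the mitotic sum and the replication module, whereas in CAG-GFP Pilo replicate 2 was highest for the mitotic sum, at 255 CPM, and replicate 3 for the module, at 540.2 CPM. None of the 10 passed the test with edgeR; at an unadjusted p under 0.05, 5 were higher in DREADD Pilo, 4 in CAG-GFP Pilo and 6 in DREADD Sham, each against CAG-GFP Sham, and 0 were lower, beside 19.2%, 15.4% and 18.6% of all genes in either direction. DESeq2 called 6 in each of these 3 comparisons and 5 in the interaction, beside 14.6%, 11.9% and 14.2% of all genes in the 3 and 7.8% in the interaction. Limma voom called 2 in CAG-GFP Pilo against CAG-GFP Sham, beside 4.16% of all genes, and 0 elsewhere. Birc5, survivin of the chromosomal passenger complex, led these. Birc5 had 24.4, 11.4 and 0 CPM in DREADD Pilo, 29.7, 63.2, 11.9 and 21.6 in CAG-GFP Pilo, 0.712, 0.1296, 29.4 and 61.8 in DREADD Sham, against 0, 0.0493 and 0 in CAG-GFP Sham. Mki67, Top2a, Bub1 and Aurkb had 0 counts in CAG-GFP Sham.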

How the data were processed

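Live GFP-positive cells, described as adult-born granule cells, were sorted from mouse hippocampus at day 14 and sequenced as 14 libraries in 4 groups. The authors deposited 1 table of whole-number counts per gene, without normalisation, as its values show. The submitters' processing notes name edgeR, R 4.1.1, Subread, featureCounts and Bowtie2, and the human build hg38, although every identifier in the table is a mouse one. The sources used here give no strand setting, no rule for reads with several matches and no annotation release.

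Symbols and positions came from GENCODE M21 (GRCm38) by identifier without version, which matched 97.961% of 43346 genes. CPM were computed from the counts with TMM-scaled totals. Depth was 10613291 to 38614639 counts per library. Tests used edgeR 4.0.16 in R 4.3.3 (filterByExpr, quasi-likelihood F-test, Benjamini-Hochberg adjustment over 18676 genes, threshold 0.05). Alternatives were other scalings, no filter, DESeq2 1.42.0, limma voom (limma 3.58.1), the library-name set as a covariate or within sets, a replicate block, leaving out each library and, chosen after seeing the data, adding pseudogene counts and counting group overlaps without DREADD Pilo 3 or CAG-GFP Pilo 4. The test was checked on simulated data drawn with a smaller spread between libraries than the real data. In the real data the common biological coefficient of variation was 1.471. The check therefore does not show how many true differences the test would find or miss here. For bounds, 0 counts in a group were replaced by 3 over the whole group. Bounds and intervals reflect the counting error of reads alone. The reads carry no molecular identifiers, so amplified copies of 1 molecule cannot be told apart, and the error in counting molecules is not covered. Pseudogenes were matched to member transcripts by BLAST at 90% identity or more over at least 200 bases. Promoter windows are RefSeq's (GRCm38.p6).

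The members and gene lists were chosen with earlier results of these data known. Values per library are given for the 27 members whose highest group mean reached 5 CPM, and tests for the 3 members with the smallest p in each comparison. Of the other lists the gene with the smallest p in a comparison is named, and Rrm2 for the title of the study; 1 such gene is not reported here. Same-numbered replicates did not deviate together, and replicate numbers were not taken as pairs. The library-name set could hide a pairing, so the check does not exclude one.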

Additional observations from a re-analysis of the deposited data

Results flagged for a closer look

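Dixon's test for a library standing apart was run 56 times, each on 1 member in the 4 libraries of CAG-GFP Pilo or DREADD Sham. Such a library was found in 9 of these tests. The nominal rate of 1 in 20 holds for normally distributed values and is no yardstick for CPM with many zeros. A member read in only 1 of 4 libraries stands apart by construction, as Dtl did in CAG-GFP Pilo. The members Fen1, Hells and Dtl stood apart in DREADD Sham 4, the library with the highest sum of mitotic markers. Fen1 was at 182 CPM there and at 7.95 to 30.0 CPM in the other DREADD Sham libraries. Hells was at 55.5 CPM there and at 0 to 2.69 CPM in the others. Dtl was at 41.3 CPM there and at 0 to 2.70 CPM in the others.

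In DREADD Sham 1, Cdc45 was at 8.42 CPM, against 0 to 1.39 CPM in the other DREADD Sham libraries, and Gins4 was low at 23.6 CPM, against 45.3 to 49.4 CPM. In CAG-GFP Pilo 4, the library with the fewest detected genes, Chaf1b was at 49.9 CPM, against 0.282 to 2.71 CPM in the other CAG-GFP Pilo libraries, and Hells was at 27.2 CPM, against 0 to 3.35 CPM. Dtl was at 18.2 CPM in CAG-GFP Pilo 3 and had no count in the other CAG-GFP Pilo libraries. Gins2 was at 22.4 CPM in CAG-GFP Pilo 1, against 9.63 to 11.2 CPM.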

How the results depend on the processing

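The 18 differences of named members had 408 alternative values. Of these, 389 kept their direction and side of the threshold, 15 gained significance, 0 lost it and 4 reversed. None of the 18 passed the threshold in the edgeR fit of all libraries (smallest adjusted p = 0.169). A loss was therefore not possible, and keeping the side meant staying above the threshold. The 18 were also chosen by smallest p in the same data, so the tally is no measure of how well they hold. The 4 reversals were all of Pcna. Adding Pcna-ps2 gave 0.61 in DREADD Pilo against CAG-GFP Sham and 0.29 against CAG-GFP Pilo. In DREADD Pilo against CAG-GFP Pilo the library-name set as a covariate gave 0.071 and set 2 alone 0.19. Adding pseudogene counts is the cause of the first pair by construction; the cause of the other 2 was not tested.

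The tool set the number of calls. In the comparisons of DREADD Pilo, CAG-GFP Pilo and DREADD Sham with CAG-GFP Sham, edgeR called 0 members, DESeq2 7, 4 and 5 and limma voom 2, 1 and 1, and DESeq2 called 4 in the interaction. Over all genes the same 3 comparisons gave 42, 45 and 56 calls in edgeR, 2723, 2221 and 2655 in DESeq2, and 1005, 777 and 858 in limma voom. DESeq2 called 171 genes in DREADD Pilo against CAG-GFP Pilo, 158 against DREADD Sham and 1456 in the interaction, where limma voom called 37 and an unfiltered fit 3; edgeR called 0 in each. Library totals alone gave 29 calls in CAG-GFP Pilo and 13 in DREADD Sham against CAG-GFP Sham. The set covariate gave 89 and 146 in these, 2 in DREADD Pilo against DREADD Sham and 11 in the interaction. Set 1 alone gave 478 and 534. The causes were not tested.

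Deviations of same-numbered libraries from their group means correlated at -0.381 to 0.115 in 19 pairs, with 1 over 0.1. Replicates 1 and 2 are of set 2 in CAG-GFP Pilo and of set 1 in DREADD Sham. The set can therefore hide a pairing, and the check cannot exclude one. A fit with the replicate block called 9 genes in DREADD Pilo, 1 in CAG-GFP Pilo and 0 in DREADD Sham, each against CAG-GFP Sham. With it the member median in DREADD Pilo against CAG-GFP Sham was 0.63, beside 0.64 for all genes.

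Leaving out 1 library at a time called 0 members in every comparison. Calls over all genes ran from 4 to 162 in DREADD Pilo, 3 to 159 in CAG-GFP Pilo and 7 to 277 in DREADD Sham against CAG-GFP Sham, the highest count in each without DREADD Pilo 3, and from 0 to 1 in the interaction. The member median then ran from -0.35 to 0.81 in DREADD Pilo, 0.31 to 1.42 in CAG-GFP Pilo and 1.03 to 2.06 in DREADD Sham against CAG-GFP Sham. It ran from -1.08 to -0.41 in DREADD Pilo against CAG-GFP Pilo, from -1.31 to -0.38 against DREADD Sham and from -2.36 to -1.11 in the interaction.

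Within set 1 the median member differed by 0.15 in DREADD Sham and by 1.53 in CAG-GFP Pilo, each against CAG-GFP Sham. In the interaction it differed by -2.36 with library totals alone, which moved the median of all genes there to -1.42. Summed member levels with pseudogenes were 881 and 508 CPM in DREADD Pilo 1 and 2, 569 and 636 CPM in CAG-GFP Pilo 1 and 2, and 829 and 1723 CPM in DREADD Sham 3 and 4. With library totals alone they were 714 CPM in CAG-GFP Pilo 4 and 399, 360.5 and 326 CPM in CAG-GFP Sham.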
